A study of Mus musculus with 8 samples.

Results

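The G1/S and DNA replication genes are 31 mouse genes that a cell uses to leave G1 and copy its DNA, chosen by symbol and followed here in leukaemic bone marrow. Their NCBI gene numbers were looked up in an RNA-seq table of 18020 genes, and 31 of 31 were found. The table holds 8 bone marrow libraries of mice transplanted with BCR-ABL1+ B-ALL cells, B-lineage cells transformed by the fusion tyrosine kinase of a human acute leukaemia. In WT_PBS (n = 2) the transplanted cells were Aid WT and treated with PBS, a buffer. In WT_LPS (n = 3) they were Aid WT and treated with LPS, a bacterial cell wall component that triggers inflammatory signalling. In KO_LPS (n = 3) they were Aid KO and treated with LPS. All 3 groups share BCR-ABL1 and the transplant. The labels give no strain, age, dose, time or number of independent cell cultures, and no Aid KO library with PBS was analysed here. The p-values cover library-to-library spread alone, part of which may be technical.

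In G1, the origin recognition complex with Cdc6 and Cdt1 loads the Mcm2 to Mcm7 helicase onto origins of replication. Cyclin E with Cdk2 then releases E2F transcription factors from the retinoblastoma protein, and E2F raises the transcription of many of the genes described here. At the start of S phase Cdc45 and the GINS complex join the helicase. DNA polymerases alpha, delta and epsilon then synthesize DNA, delta and epsilon on a PCNA clamp. BCR-ABL1 signalling keeps such B-lineage cells in cycle, and replication transcripts are a common readout of how many cells are in or near S phase.

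The promoters were searched for motifs that many, though not all, of these genes hold. RefSeq promoter windows of GRCm38.p6, from 250 bases before to 50 after the start, were matched for 25 of the 31 genes, and Mcm4, Gins1, Gins2, Gins4, Pole and Ccne2 had none. An E2F motif lay in a window of 17 of the 25 genes, or 68.0%, against 19.6% of the 9266 tested genes with a window and 10.9% of all 27025 genes with one. Ccne1, Cdc45, E2f1, Mcm2, Pcna, Slbp, Tk1 and Tyms had a window but no E2F motif in it. The letters searched were TTCCCGC with its variant TTCGCGC, as well as TTGCCGC with its variant TTGGCGC, on either strand and with overlaps allowed. The 42 other replisome genes, of which 35 had a window, held it in 54.3%, and the mitosis genes in 4 of 25. The CHR motif of late cell cycle promoters (TTTGAA or TTCGAA, either strand) was arranged the other way round, in 24.0% of the replication genes and 76.0% of the mitosis genes, against 16.9% of tested genes. The NF-Y motif CCAAT lay in 64.0%, 84.0% and 43.9% of these sets, and the Sp1 motif GGGCGG in 76.0%, 80.0% and 67.9%. These are matches of letters in a window and not measured binding sites.

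**Figure D1:**
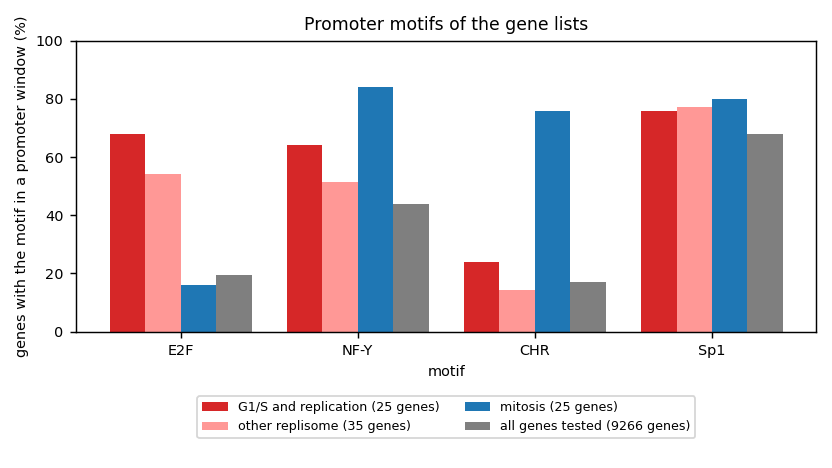
Bars give the share of genes (%) with each motif in a promoter window, for the G1/S and replication genes, the other replisome genes, the mitosis genes and all genes tested with a window. E2F stood at 68.0% in the replication genes and in 4 of 25 mitosis genes, and CHR at 24.0% and 76.0%.

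Windows of 5 genes are printed because these genes had among the smallest p-values between groups and hold an E2F motif, which is in capitals, with reverse-strand matches as they read on the gene's strand. Mcm5 (chr8:75109259-75109558, plus strand) and Mcm7 (chr5:138171834-138172133, minus strand) encode helicase subunits and held 3 matches each. Lig1 (chr7:13278576-13278875, plus strand), the ligase that joins Okazaki fragments, and Rfc3 (chr5:151651159-151651458, minus strand), a clamp loader subunit, held 2 each. Pold1 (chr7:44548766-44549065, minus strand), the catalytic subunit of polymerase delta, held 1.
Mcm5: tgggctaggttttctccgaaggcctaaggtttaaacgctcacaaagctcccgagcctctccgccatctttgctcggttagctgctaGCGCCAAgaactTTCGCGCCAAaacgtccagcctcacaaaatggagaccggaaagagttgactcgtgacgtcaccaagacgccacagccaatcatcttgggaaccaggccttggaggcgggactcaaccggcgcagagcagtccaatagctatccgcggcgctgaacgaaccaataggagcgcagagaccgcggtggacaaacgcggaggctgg
Mcm7: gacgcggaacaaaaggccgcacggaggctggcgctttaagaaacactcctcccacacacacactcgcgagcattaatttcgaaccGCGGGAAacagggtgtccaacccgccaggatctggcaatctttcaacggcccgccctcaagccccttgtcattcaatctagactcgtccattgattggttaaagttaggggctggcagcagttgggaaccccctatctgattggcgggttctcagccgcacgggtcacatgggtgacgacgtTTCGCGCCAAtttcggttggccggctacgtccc
Lig1: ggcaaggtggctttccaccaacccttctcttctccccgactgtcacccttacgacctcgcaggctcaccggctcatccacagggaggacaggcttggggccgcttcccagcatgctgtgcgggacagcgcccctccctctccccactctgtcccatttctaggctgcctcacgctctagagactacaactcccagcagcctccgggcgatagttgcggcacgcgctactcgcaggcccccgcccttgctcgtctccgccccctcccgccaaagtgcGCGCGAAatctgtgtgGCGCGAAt
Pold1: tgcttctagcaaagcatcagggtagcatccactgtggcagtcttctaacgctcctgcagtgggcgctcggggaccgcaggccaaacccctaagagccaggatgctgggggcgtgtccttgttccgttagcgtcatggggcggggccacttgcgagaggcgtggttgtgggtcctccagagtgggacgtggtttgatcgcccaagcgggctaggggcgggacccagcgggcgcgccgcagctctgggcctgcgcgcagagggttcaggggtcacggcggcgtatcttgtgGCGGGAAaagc
Rfc3: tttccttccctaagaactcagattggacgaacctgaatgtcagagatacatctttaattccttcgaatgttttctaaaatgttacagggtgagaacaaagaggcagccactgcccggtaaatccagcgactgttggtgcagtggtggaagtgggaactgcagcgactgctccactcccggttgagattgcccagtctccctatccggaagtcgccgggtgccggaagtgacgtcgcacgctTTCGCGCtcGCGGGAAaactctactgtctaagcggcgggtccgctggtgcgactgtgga
In the windows printed, the matches lay before the start in Mcm5, after it in Lig1 and Pold1, and on both sides in Mcm7. In Rfc3 they lay just before and at the start. Lig1 had 3 windows and Mcm7 had 2, of which only 1 is printed for each. The positions given for these genes hold for the start of that window alone.

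Values were FPKM (fragments per transcript, scaled to transcript length and library size), with totals of 606576 to 700238 per library and 15540 to 15894 rows above 0. The libraries are mixtures of leukaemic and host cells. Fewer cells of a type and less RNA per cell cannot be told apart in them. Of the B-lineage markers, Cd79a, a B-cell receptor chain, was at 844 to 1086 FPKM and the surrogate light chain gene Vpreb1 at 1996 to 2946. Dntt, the terminal transferase of early lymphoid cells, was at 0.16 to 1.0. WT_LPS replicate 1, KO_LPS replicate 1 and KO_LPS replicate 2 stood apart on the first principal component (60.5% of the variance), with scores of 17.4, 34.5 and 50.02 against -35.1 to -1.3 in the others. Results are therefore also given without these 3.

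Pcna, the sliding clamp, had the highest level in every library, at 397 and 394 FPKM in WT_PBS, 389, 381 and 432 in WT_LPS, and 356, 353 and 493 in KO_LPS. Mcm6, a helicase subunit, lay between 118 and 165 FPKM, and 3 genes (Pcna, Mcm7 and Mcm6) stayed above 100 in every library. The median gene was at 50.9 FPKM. Cdc45, which activates the helicase, was the only one under 5 FPKM on average, at 0.9 to 1.63 in 7 libraries and 3.51 in KO_LPS replicate 2. Between the highest and the lowest library a gene differed by 1.24-fold (Tyms, thymidylate synthase) to 3.90-fold (Cdc45), with a median of 1.45-fold, and by at least 2-fold in 4 genes: Cdc45, Pola1, Ccne2 and Rrm2.

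**Figure D2:**
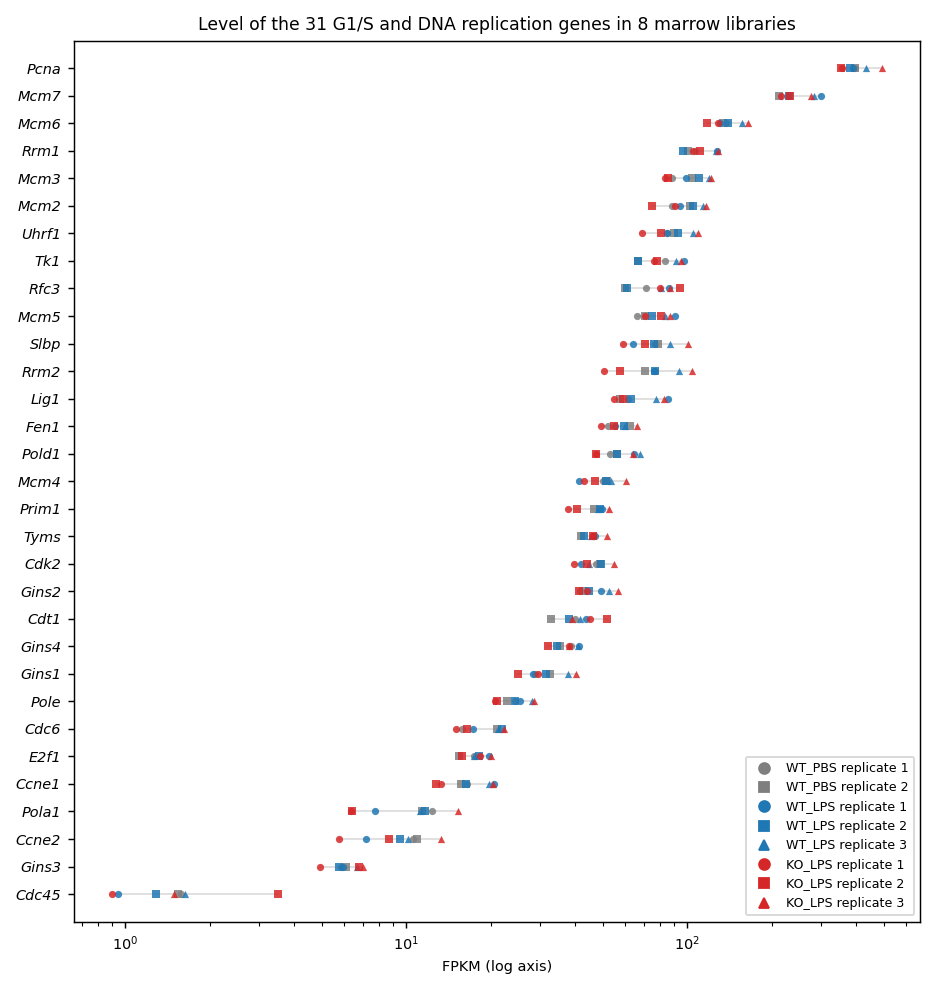
Each row is 1 of the 31 genes and each point its FPKM (log axis) in 1 of 8 libraries, with colour for the group and shape for the replicate. Pcna lies at 353 to 493 FPKM and Cdc45 at 0.9 to 3.51, and WT_LPS and KO_LPS overlap in every row.

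Subunits that assemble in equal numbers did not have equal transcript levels per length. Within the helicase, Mcm7 was the highest and Mcm4 the lowest subunit in every library, 4.12 to 7.28 times apart. Mcm7 read 229 and 213 FPKM in WT_PBS, 299, 229.6 and 282 in WT_LPS, and 216.5, 232 and 276 in KO_LPS. All 3 WT_LPS values were above both WT_PBS values, the nearest pair being 229 and 229.6, and the KO_LPS values overlapped both groups. Mcm5 was at 66.0 and 70.7 FPKM in WT_PBS, 90.8, 74.9 and 83.0 in WT_LPS, and 70.7, 80.9 and 86.5 in KO_LPS. Again WT_LPS lay wholly above WT_PBS, while the lowest KO_LPS library equalled the higher WT_PBS one. Mcm3 was at 88.5 and 103.6 FPKM in WT_PBS, 99.1, 110.3 and 119 in WT_LPS, and 83.5, 85.8 and 121 in KO_LPS. Here both extremes lay in KO_LPS, as they did for Mcm2 (75.1 to 117 FPKM) and Mcm6, whereas Mcm4 was lowest in WT_LPS replicate 1 (41.1) and highest in KO_LPS replicate 3 (60.8).

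In GINS, the Gins2 subunit was 6.05 to 8.95 times the level of Gins3. Gins2 was at 41.6 and 42.4 FPKM in WT_PBS, 49.3, 44.8 and 52.9 in WT_LPS, and 44.1, 41.2 and 56.8 in KO_LPS. WT_LPS did not overlap WT_PBS, and KO_LPS spanned the whole range of both. Gins1 (24.9 to 40.2 FPKM), Gins3 (4.93 to 7.04) and Gins4 (32.0 to 41.3) overlapped between all groups. The exons of Gins2 and of 9 other genes of the list (Ccne2, Cdc45, Cdk2, Fen1, Lig1, Mcm7, Pole, Slbp and Tk1) overlap an exon on the opposite strand in GENCODE M21, so without knowledge of the counting their reads may include a neighbour's. Pcna and Tyms have named pseudogenes that could share reads.

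Among the polymerases, Pold1 was at 53.3 and 56.5 FPKM in WT_PBS, 64.5, 56.3 and 68.0 in WT_LPS, and 47.4, 47.4 and 63.9 in KO_LPS. The low KO_LPS pair lay under every other library. Pola1, the catalytic subunit of the polymerase that starts each new strand, was at 12.4 and 11.4 FPKM in WT_PBS, 7.74, 11.7 and 11.2 in WT_LPS, and 6.37, 6.4 and 15.3 in KO_LPS. Its 3 lowest values belonged to the 3 libraries that stood apart. Prim1, the primase that lays the RNA primer, kept to 46.7 to 49.7 FPKM in the 5 Aid WT libraries and read 37.6, 40.6 and 52.5 in KO_LPS. Pole, of the leading-strand polymerase, ranged from 20.8 to 28.6 FPKM.

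Of the clamp loader and strand maturation genes, Rfc3 was at 71.4 and 60.2 FPKM in WT_PBS, 86.2, 60.9 and 80.4 in WT_LPS, and 79.7, 94.1 and 87.1 in KO_LPS. It was thus higher in every KO_LPS library than in WT_PBS, with WT_LPS across both. Lig1 was at 61.7 and 57.7 FPKM in WT_PBS, 85.6, 63.3 and 77.5 in WT_LPS, and 55.1, 58.9 and 82.8 in KO_LPS. WT_LPS lay above WT_PBS, and KO_LPS overlapped both. Fen1, the flap endonuclease, ranged from 49.3 to 66.2 FPKM with overlap throughout.

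Of the licensing and G1/S genes, Cdt1 was at 39.9 and 32.7 FPKM in WT_PBS, 43.6, 38.1 and 41.7 in WT_LPS, and 44.9, 51.9 and 38.8 in KO_LPS. Within KO_LPS it was lowest in replicate 3, the library that was highest for most other genes. Cdc6, its partner in licensing, was at 15.8 and 21.1, 17.2, 21.9 and 21.1, and 15.1, 16.4 and 22.3 FPKM in the same order of libraries. Ccne1, cyclin E1, was at 16.4 and 15.7 FPKM in WT_PBS, 20.6, 16.3 and 19.6 in WT_LPS, and 13.3, 12.8 and 20.4 in KO_LPS. Ccne2, cyclin E2, was below Ccne1 in every library and the only gene of the list lower in all WT_LPS libraries (7.17, 9.52 and 10.1 FPKM) than in both WT_PBS libraries (10.6 and 10.9). E2f1, an E2F activator, stayed within 15.5 to 20.1 FPKM, its lowest WT_LPS value (17.46) just above its highest WT_PBS value (17.45), and Cdk2 within 39.5 to 54.8.

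Of the nucleotide supply genes, Rrm2, the small subunit of ribonucleotide reductase whose level limits the enzyme in cycling cells, was at 76.8 and 70.8 FPKM in WT_PBS, 75.9, 76.7 and 93.4 in WT_LPS, and 50.4, 57.6 and 104.1 in KO_LPS. Rrm1, the large subunit, varied less, from 96.6 to 129 FPKM, so that their ratio was 1.24 in KO_LPS replicate 3 and 2.08 and 1.92 in replicates 1 and 2. Tyms was at 41.8 to 51.7 FPKM and the salvage kinase gene Tk1 at 66.8 to 97.7. Slbp, which binds histone mRNA, and Uhrf1, which guides maintenance DNA methylation, ranged from 59.3 to 101.02 and from 69.1 to 109 FPKM, and both were lowest in KO_LPS replicate 1 and highest in KO_LPS replicate 3.

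Between LPS and PBS with intact Aid, 25 of the 31 genes had a log2(FPKM + 1) difference above 0, led by Lig1, Mcm7 and Mcm5, but none passed. The differences were 0.32 ± 0.20 (SE) for Lig1, 0.28 ± 0.15 for Mcm7, 0.27 ± 0.14 for Mcm5, 0.21 ± 0.16 for Gins2, 0.19 ± 0.16 for Pold1 and 0.19 ± 0.17 for Rfc3 (limma, Benjamini-Hochberg over all genes, adjusted p = 0.9998 for each). The median over the 31 was 0.12, against -0.06 over the 12061 genes tested, of which 38.5% lay above 0 and 61.5% below. Of the other replisome genes 19 of 42 lay above 0 (median -0.005), and of the mitosis genes 15 of 30 (median 0.02). Genes past the threshold numbered 0 of 31, with a background of 0.0% of all genes, and 0 of 31 had an unadjusted p under 0.05 (1.18% of all genes). WT_LPS lay wholly above WT_PBS in 5 genes (Mcm5, Mcm7, Gins2, Lig1 and E2f1; background 5.36%) and wholly below in 1, Ccne2 (background 10.3%). Leaving out WT_LPS replicate 3 brought the median to 0.05, and leaving out WT_PBS replicate 2 brought it to 0.07. Without the 3 libraries that stood apart, 1 of which is in WT_LPS, it was 0.11. At the median over the 31 genes the 95% interval reached 0.40 to either side of the difference, so smaller differences could not be resolved.

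Between cells without and with Aid, both under LPS, 23 of the 31 genes were below 0 and 8 above, and none passed. The largest fitted differences among the 6 with the smallest p were -0.29 ± 0.20 (SE) for Ccne1 and -0.26 ± 0.15 for Pold1. Lig1 (-0.21 ± 0.18), Mcm3 (-0.19 ± 0.16) and Prim1 (-0.18 ± 0.14) followed, and Rfc3 was the only one of the 6 above 0 (0.21 ± 0.15; limma, adjusted p = 0.7648 for each). The median was -0.06, as it was over all genes tested, of which 58.0% lay below 0 and 42.0% above. The count past the threshold was 0 of 31 against a background of 0.0829% (0.058% higher and 0.0249% lower), with 0 at an unadjusted p under 0.05 (5.69% of all genes). The groups overlapped in all 31 genes, where 4.82% of all genes lay wholly higher in KO_LPS and 4.32% wholly lower. With median-ratio scaling of the libraries the split was 17 below and 14 above 0, with a median of -0.01 (all genes -0.01).

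This comparison depended on KO_LPS replicate 3. Without it, 27 of 31 genes were below 0 with a median of -0.21, where the median over all genes was -0.12. The count past the threshold was then 0 of 31 (limma, smallest adjusted p = 0.07535) against 161 of all genes, and 9 of 31 had an unadjusted p under 0.05, near the share of all genes (25.1%). Without the 3 libraries that stood apart, which leaves it as the only KO_LPS library and assumes that it varies like the others, 30 of 31 were above 0 with a median of 0.16. With library weights, which gave KO_LPS replicate 3 a weight of 0.246 and WT_LPS replicate 3 one of 10.1, 9 of 31 passed (Ccne1, Lig1, Mcm2, Mcm3, Pola1, Pold1, Pole, Rrm2 and Uhrf1). All 9 were lower in KO_LPS, where 15.3% of all genes passed in that direction and 22.6% in either.

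Between KO_LPS and WT_PBS, the groups that differ in both Aid and treatment, 14 genes were above 0 and 17 below, with a median of -0.01 against -0.12 over all genes, of which 35.0% lay above 0 and 65.0% below. Rfc3 had the smallest p: its difference was 0.40 ± 0.17 (SE), higher in 3 of 3 KO_LPS libraries, with an unadjusted p of 0.04547 (limma, adjusted p = 0.6307). Cdt1 differed by 0.31 ± 0.16 and Mcm5 by 0.21 ± 0.14 (adjusted p = 0.6307 for both), Pola1 by -0.42 ± 0.36 (0.6369), Tyms by 0.13 ± 0.12 (0.6589) and Gins2 by 0.16 ± 0.16 (0.6639). The count past the threshold was 0 of 31 (limma; background 0.0497%, of which 0.0332% higher and 0.0166% lower), with 1 at an unadjusted p under 0.05 (6.69% of all genes). KO_LPS lay wholly above WT_PBS for Rfc3 and Tyms (background 8.22%) and wholly below for none (background 13.3%). Under median-ratio scaling 27 of 31 were above 0, with a median of 0.10, and the median over all genes moved from -0.12 to -0.04. Quantile normalization gave 16 above and 15 below, and moved the median over all genes from -0.12 to -0.01. Leaving out KO_LPS replicate 3 gave a median of -0.16 (all genes -0.19). Leaving out replicate 1 or 2 gave 0.078 or 0.05 (all genes -0.09 in both). Without the 3 libraries that stood apart, which leaves 1 KO_LPS library, the median was 0.30 (all genes 0.004). WT_LPS and WT_PBS each enter a pair of these comparisons, so the values of one comparison are not independent of another.

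**Figure D3:**
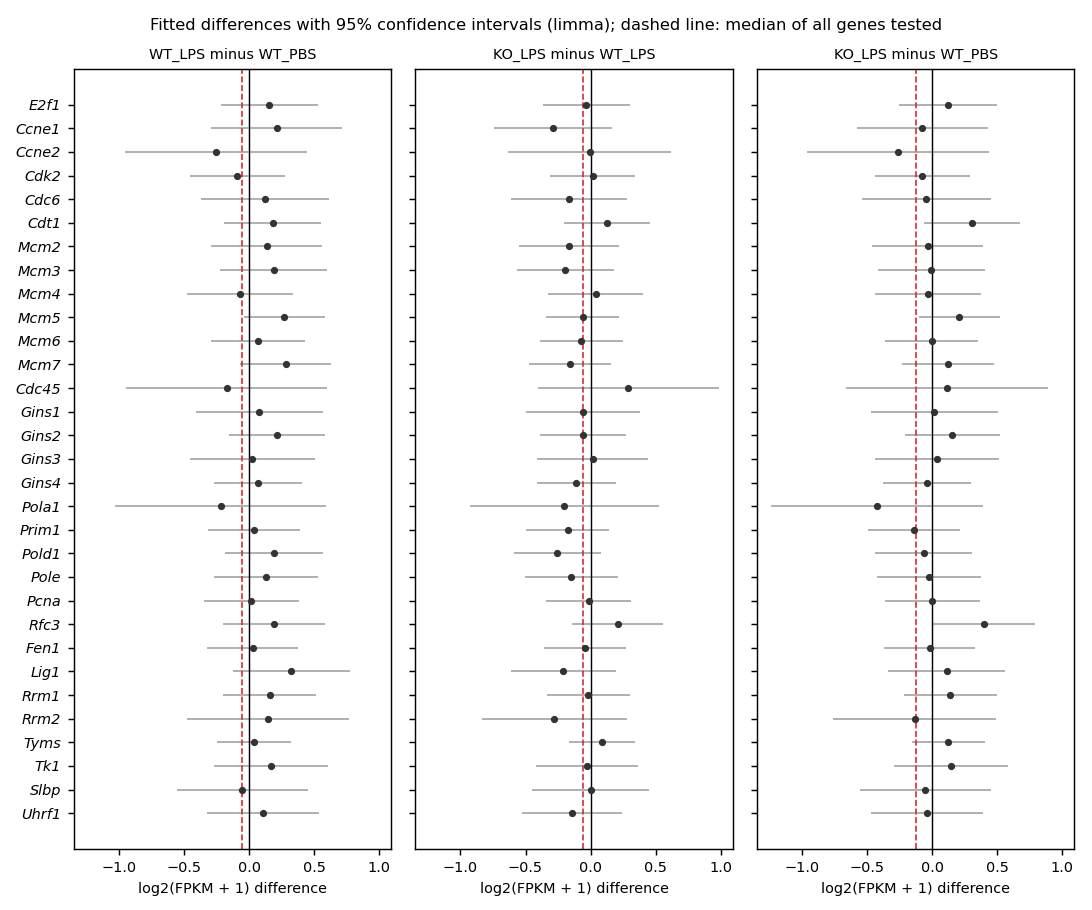
Points are the fitted differences in log2(FPKM + 1) of the 31 genes in the 3 comparisons, with 95% confidence intervals from limma. The dashed line is the median of all genes tested (-0.06, -0.06 and -0.12), and only the interval of Rfc3 between KO_LPS and WT_PBS lies wholly on one side of 0.

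The KO_LPS libraries lay far apart in these genes. KO_LPS replicate 3 held the highest of the 8 values for 21 of 31 genes, against 10.4% of all genes tested, and the lowest for 0. KO_LPS replicate 1 held the lowest for 15 of 31 (14.9% of all genes) and KO_LPS replicate 2 for 7 (32.8%). The related lists shared part of this. KO_LPS replicate 3 was highest for 18 of the 42 other replisome genes and lowest for 0, but highest for only 5 of the 30 mitosis genes. KO_LPS replicate 1 was lowest for 12 of the 42 and for 12 of the 30. In 27 of the 31 replication genes, replicate 3 was above both other KO_LPS libraries, as it was in 55.5% of all genes, and it was 1.34 times their mean at the median. The exceptions were Cdt1, Rfc3, Cdc45 and Gins4. WT_LPS replicate 3 was the next highest, with 28 of 31 genes above their 8-library mean and a median deviation of 0.17 on the log2 scale, against 0.24 in KO_LPS replicate 3, -0.21 in KO_LPS replicate 1 and -0.16 in KO_LPS replicate 2. In these libraries the other replisome genes leaned the same way, with median deviations of 0.11, 0.17, -0.12 and -0.13. Those over all genes were 0.02, 0.07, -0.11 and -0.12. Within groups, the SD of a gene was 0.18 at the median, from 0.08 (Tyms) to 0.46 (Pola1), against 0.25 over all genes.

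**Figure D4:**
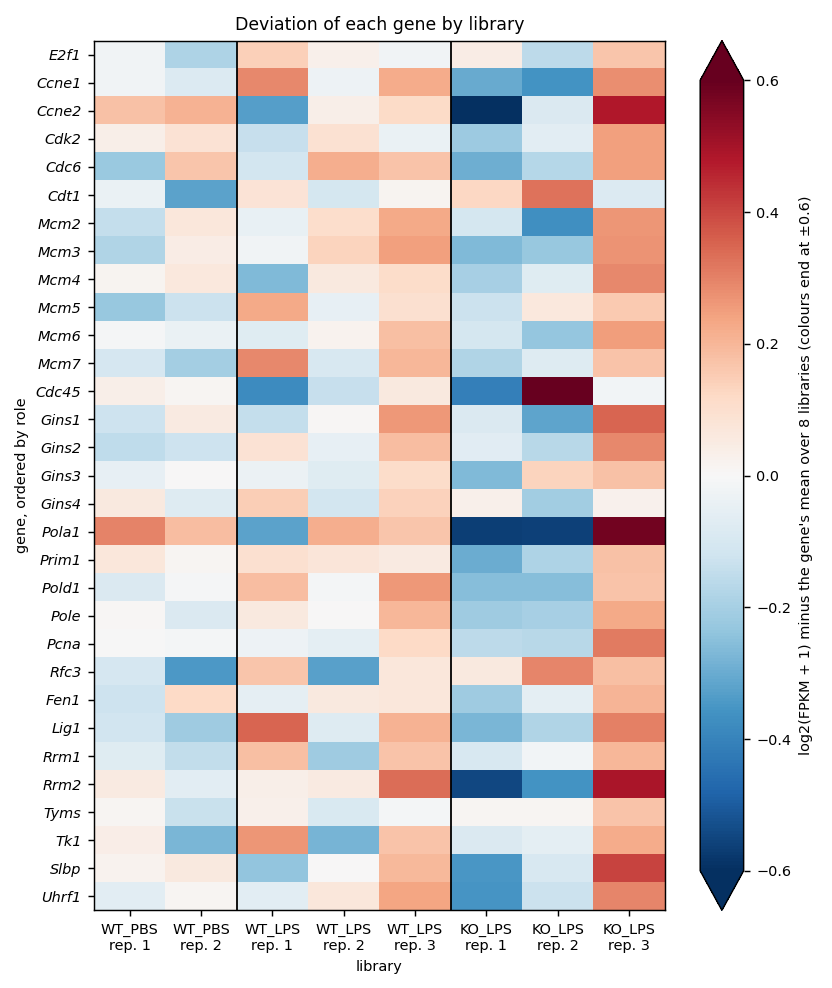
Colour gives each gene's log2(FPKM + 1) in a library minus its mean over the 8 libraries, red above and blue below, with genes in order of role. KO_LPS replicate 3 is red in 29 of 31 genes and KO_LPS replicates 1 and 2 are blue in 26 and 25.

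Markers of other marrow cells also differed between these libraries. The summed level of the erythroid list (10 of 10 found) was 1207 and 975 FPKM in KO_LPS replicates 1 and 2 and 79.7 in replicate 3, against 98.0 to 325 in WT_LPS and 170.1 to 318 in WT_PBS. Its 4 globin genes carried it (Hba-a1 at 476 and 382 FPKM in KO_LPS replicates 1 and 2 and 26.9 in replicate 3), and the erythroid regulator Klf1 and the erythropoietin receptor gene Epor were at 0.22 to 0.87 FPKM in every library. The neutrophil list (10 of 10) summed to 6855 and 5884 FPKM in KO_LPS replicates 1 and 2 and to 14700 in replicate 3. It summed to 29040, 9342 and 8936 in WT_LPS replicates 1, 2 and 3, and to 12680 to 16020 in WT_PBS. Of the libraries that stood apart, WT_LPS replicate 1 thus had the highest sum and KO_LPS replicates 1 and 2 the lowest. Elane and Prtn3 of this list differed from the sum. In KO_LPS replicate 2 they were at 64.0 and 60.2 FPKM, above WT_LPS replicates 2 and 3 (Elane 60.4 and 62.2, Prtn3 54.7 and 53.2). Each other marker of the list was lowest in KO_LPS replicates 1 and 2. The B-lineage list (10 of 10) was highest in KO_LPS replicate 1, at 7858 FPKM, and ranged from 5308 to 6579 in the other 7. Monocyte and macrophage markers (8 of 8) were at 202 to 236 FPKM in KO_LPS, 183 to 315 in WT_LPS and 213 to 237 in WT_PBS, but single markers did not share this range. C1qa, a complement gene of tissue macrophages, was at 74.3 and 65.9 FPKM in KO_LPS replicates 1 and 2 and at 18.6 to 22.7 in the other 6 libraries. Ccr2, a chemokine receptor of inflammatory monocytes, was at 0.63 and 0.4 in those 2 libraries and at 2.19 to 3.78 in the other 6, and Ly6c2, also of these monocytes, was lowest there (96.1 and 81.8 against 101.3 to 223). T and NK markers (8 of 9 found), megakaryocyte markers (5 of 5) and stromal markers (6 of 6) summed to at most 38.6, 25.8 and 46.8 FPKM in any library. The part of these cells in the replication gene levels was not tested.

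The numbers in the library names (1 and 7 in WT_PBS, 6, 40 and 100 in WT_LPS, 2, 5 and 8 in KO_LPS) crossed the groups, and the labels do not say what they count. Libraries numbered 1 to 6 are those that stood apart and WT_PBS replicate 1. The number class and the fits without those that stood apart are therefore not separate checks. With groups and a term for numbers 1 to 6 against 7 to 100 in the fit, 3404 of 12061 genes passed for the number (28.2%; 21.3% lower and 6.96% higher in the low-numbered libraries). Of the replication genes 3 passed, each lower in the low-numbered libraries: Cdc6 at -0.39 ± 0.11 (SE; limma, adjusted p = 0.02511), Mcm3 at -0.32 ± 0.09 (adjusted p = 0.02797) and Mcm2 at -0.32 ± 0.10 (adjusted p = 0.0433). This share lies under that of all genes. In all, 24 of 31 were below 0 with a median of -0.15, against -0.12 over all genes, and Cdt1 was the highest (0.23 ± 0.10, adjusted p = 0.1013). With the number held in the fit, the group medians became 0.08 between WT_LPS and WT_PBS, -0.02 between KO_LPS and WT_LPS and 0.03 between KO_LPS and WT_PBS, and 0 of 31 genes passed in each (limma).

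Within one class of number the comparisons between cells with and without Aid went opposite ways. Among low-numbered libraries, KO_LPS replicates 1 and 2 against WT_LPS replicate 1, 26 of 31 genes were below 0, with a median of -0.19 (all genes -0.01). Among high-numbered ones, KO_LPS replicate 3 against WT_LPS replicates 2 and 3, 30 of 31 were above 0, with a median of 0.16 (all genes 0.02). In that high-numbered comparison 30 of 30 mitosis genes (median 0.13) and 39 of 42 other replisome genes (median 0.15) were also above 0. In the low-numbered one 18 of 30 mitosis genes (median 0.06) and 21 of 42 other replisome genes (median -0.004) were above 0. In the low-numbered and the high-numbered class, WT_LPS was above WT_PBS in 20 of 31 genes (median 0.07, all genes -0.11) and in 27 of 31 (median 0.13, all genes -0.04). The other replisome genes were above 0 in 16 of 42 (median -0.10) and 30 of 42 (median 0.07) in the same order. Mitosis genes were above 0 in 14 of 30 (median -0.01) and 12 of 30 (median -0.04). These are differences of means with 1 or 2 libraries a side, given with no test of their own. The high-numbered Aid comparison sets the same libraries against each other as the fit without the 3 libraries that stood apart, in which 0 of 31 genes passed (limma) and 0 had an unadjusted p under 0.05 (2.06% of all genes).

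The other genes of the cell cycle are given by lists of function. Of 42 other replisome genes, 29 G1/S control genes and 30 mitosis genes, 0 passed in any of the 3 comparisons between groups (limma). At an unadjusted p under 0.05 the counts in the 3 comparisons, in the order above, were 0, 1 and 1 for the replisome, 1, 2 and 2 for G1/S control and 0, 0 and 2 for mitosis. The medians between KO_LPS and WT_LPS were 0.01 for the other replisome genes and 0.12 for the mitosis genes, 22 of 30 of which lay above 0, against -0.06 for the 31 replication genes. Mitosis genes followed another order of libraries: KO_LPS replicate 2 held the highest value for 18 of 30, with a median deviation of 0.28, where the replication genes were at -0.16. The median over all genes in that library was -0.12. In KO_LPS replicates 1 and 3 the mitosis genes lay near the medians of all genes, at -0.11 and 0.09 against -0.11 and 0.07, and the replication genes were at -0.21 and 0.24.

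**Figure D5:**
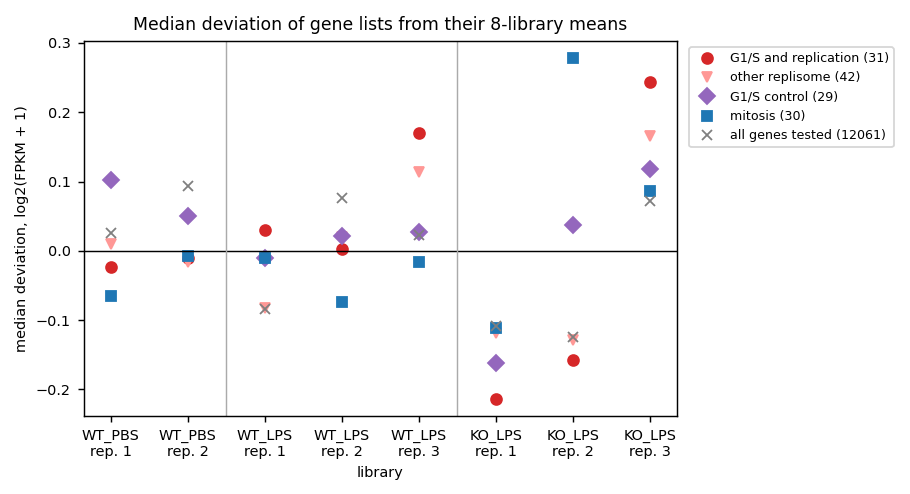
Points are the median deviation in log2(FPKM + 1) of each gene list from its genes' 8-library means, by library. In KO_LPS replicate 2 the mitosis genes lie at 0.28 and the replication genes at -0.16, while in KO_LPS replicate 3 the replication genes are highest at 0.24.

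Group means are given for the 7 genes of these lists with an unadjusted p under 0.05 in any comparison, and for those first by p in a list and comparison where none was under it. Ccnd2, a cyclin D gene, was at 89.1 ± 8.22 FPKM in WT_PBS (SD, n = 2), 65.4 ± 15.3 in WT_LPS (n = 3) and 67.0 ± 4.47 in KO_LPS (n = 3), with adjusted p = 0.9998 for WT_LPS and 0.6307 for KO_LPS against WT_PBS (limma). Cdkn2a, which encodes inhibitors of the G1/S step, was at 186 ± 8.35, 213 ± 18.5 and 289.5 ± 57.1 FPKM in these groups (limma, adjusted p = 0.5765 for KO_LPS against WT_PBS). Cdkn1c, which encodes another inhibitor of cyclin-dependent kinases, was low and went the other way, at 0.795 ± 0.163, 0.597 ± 0.0723 and 0.237 ± 0.201 FPKM, with KO_LPS wholly below both other groups (limma, adjusted p = 0.7648 against WT_LPS and 0.6307 against WT_PBS). Pole2, the accessory subunit of polymerase epsilon, was at 34.2 ± 2.93, 27.7 ± 7.98 and 19.5 ± 4.60 FPKM (limma, adjusted p = 0.6307). Orc6, of the origin recognition complex, was at 29.8 ± 4.70 FPKM in WT_LPS and 43.4 ± 10.2 in KO_LPS (limma, adjusted p = 0.7648). Orc2, of the same complex, was at 25.1 ± 0.134, 20.8 ± 2.69 and 23.1 ± 2.27 FPKM in the 3 groups. Of the mitosis genes, the proliferation marker Mki67 was at 68.8 ± 10.7, 52.95 ± 1.65 and 64.95 ± 10.2 FPKM, and the kinetochore gene Cenpf at 9.98 ± 1.27, 7.15 ± 0.61 and 9.98 ± 1.83. Birc5 and Cenpa, of the chromosomal passenger complex and the centromere, were at 113 ± 6.15 and 178.5 ± 17.9 FPKM in WT_PBS and 165 ± 29.1 and 262 ± 44.2 in KO_LPS. None of these passed.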

How the data were processed

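Bone marrow RNA of 8 mice was sequenced after library construction with a SMARTER kit for mRNA (labels' protocols). The deposited values are FPKM per the file headers, rounded to 2 decimals by the authors. GRCm38 and mm10 come from the submitters' processing notes, and no aligner or quantifier is named in these sources. Depth in reads is unknown, so no counting interval is given: the most frequent ratio of low values to WT_PBS replicate 1 was 1.0 in every other library, which rounding alone can give. FPKM does not correct for composition.

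Groups came from titles, and replicate numbers follow accession order and pair no samples. No 2 libraries were identical. The level of the gene named in the genotype is not reported here. Gene numbers matched symbols in a RefSeq table of GRCm38.p6 for 16798 of 18020 rows. The 12061 genes averaging 0.5 FPKM or more were fitted as log2(FPKM + 1), which understates changes of low genes, with limma 3.58.1 in R 4.3.3 (group means over 8 libraries, trended moderation, Benjamini-Hochberg within each comparison, threshold 0.05, two-sided). All 31 genes passed this filter. Adjusted p-values are over all genes. The fit was also run on simulated data with independent noise in each gene. Those data lacked the pattern that sets some libraries apart across many genes, so they could not show how the fit behaves under it. The members, lists, library-number classes and alternatives were chosen with earlier results of these data known. In each comparison the 6 list genes with the smallest p were named with values, as were up to 3 of each other list. Default library weights did not converge, so gene-by-gene weights were used.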

Additional observations from a re-analysis of the deposited data

How the results depend on the processing

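The count of replication genes past the threshold stayed at 0 in all 3 comparisons under every alternative except library weights, where it was 9 between KO_LPS and WT_LPS. Under all alternatives the median difference of these genes between WT_LPS and WT_PBS kept within 0.14 of its main value. This 0.14, the SD of the library medians, is wider than the main difference of 0.12, so keeping within it could not show stability. The median difference ran from 0.05 without WT_LPS replicate 3 to 0.19 with library weights. Between KO_LPS and WT_LPS it moved to -0.27 with library weights and to 0.16 without the 3 libraries with high first component scores, and from KO_LPS to WT_PBS to 0.30 without those 3, an alternative chosen after seeing the data. Without those 3, Pold1 (0.0463), Ccne1 (0.18), Prim1 (0.11), Lig1 (0.24) and Mcm3 (0.0794) turned to above 0 between KO_LPS and WT_LPS, and Pola1 (0.34) between KO_LPS and WT_PBS. With library weights Pold1 (-0.45), Ccne1 (-0.47), Lig1 (-0.38) and Mcm3 (-0.43) passed.

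With 1 library left out, the medians ranged from 0.05 to 0.13 between WT_LPS and WT_PBS, from -0.21 to -0.011 between KO_LPS and WT_LPS and from -0.16 to 0.078 between KO_LPS and WT_PBS. Calls over all genes, 0, 10 and 6 in the 3 comparisons, ranged from 0 to 2, 0 to 161 and 0 to 125, with 161 and 125 reached without KO_LPS replicate 3 and 2 without WT_PBS replicate 2. Between KO_LPS and WT_LPS the calls were 0 or 1 without any 1 of the other libraries except WT_LPS replicate 1 (7), and between KO_LPS and WT_PBS they were between 0 and 2. Between KO_LPS and WT_LPS all-gene calls were 5 with no filter, 2 at a mean of at least 5 FPKM, 2727 with library weights, 0 with only the 2 groups fitted, 33 with the library number in the fit and 1 without the 3 libraries. Between KO_LPS and WT_PBS they were 0, 3, 73, 0, 59 and 1 in the same order, and 10 under quantile normalization. Higher and lower calls, 7 and 3 between KO_LPS and WT_LPS, became 7 and 5 with median-ratio scaling; between KO_LPS and WT_PBS 4 and 2 became 4 and 1. The causes were not tested. No paired analysis was possible because the labels give no replicate numbers that the groups share.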
